A study of Mus musculus with 2 samples.

Results

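The mitochondrial genome transcripts are the rows of the gene tables whose symbol begins with mt-. They number 37 of the 43346 Ensembl genes in a table of 69691 rows: 13 messenger RNA genes, 2 ribosomal RNA genes and 22 transfer RNA genes. The tissue was embryonic facial prominence, from which the face and jaws form, of B6NCrl mouse embryos at 15.5 days, and total RNA-seq was done on 2 libraries. The labels name them biological replicates with 1 donor label, call the embryos healthy, and name no treatment and no engineered allele. Replicate 1 pooled 78 embryos and replicate 2 pooled 62, of both sexes, and 10 ng of RNA longer than 200 nucleotides entered each library. All values below therefore describe 1 group of 2 pools, no test between conditions was possible, and the SD over n = 2 is the spread between pools.

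The mitochondrial genome is a small circle of DNA kept in many copies per cell. It is transcribed from both strands into long precursors, and the transfer RNAs that lie between the other genes are cut out, which frees the messenger and ribosomal RNAs. Its messenger RNAs encode core subunits of respiratory complexes I, III and IV and of ATP synthase (complex V), while nuclear genes encode all other subunits and the machinery that expresses this genome. Fragments of mitochondrial DNA have also entered the nuclear chromosomes, and a read from such a copy can look the same as a read from the mitochondrion.

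A nuclear copy of this kind set how several members were measured, so its sequence is shown first. On chromosome 1, 7 annotated pseudogenes lie in a row on the minus strand at chr1:24611535-24616197, 4663 bases of GRCm38. They follow the order of the mitochondrial genes and match the mitochondrial genome from position 6390 to position 11042. Gm28437 matches mt-Co3 over 783 bases, Gm28661 matches mt-Co2 over 681, Gm10925 matches mt-Atp6 over 678 and Gm10222 matches mt-Nd4l over 294, each at 100% identity. These 4 annotated copies stop 1 or 3 bases short of the member's end. The last bases of 3 pairs are printed from the GENCODE M21 transcripts, 5′ to 3′, with the member's bases past the end of the annotated copy in capitals. The capitals show where the annotated copy ends and say nothing of the nuclear sequence beyond it.

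mt-Co3: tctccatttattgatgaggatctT

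Gm28437: tctccatttattgatgaggatct

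mt-Co2: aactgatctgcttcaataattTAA

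Gm28661: aactgatctgcttcaataatt

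mt-Atp6: ctatatctacatgataatacaTAA

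Gm10925: ctatatctacatgataataca

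Inside their matches, 2 copies of the row differ from the member at 1 base each. Gm28438 differs from mt-Nd3 by T3C, counted from the first base of the gene, and Gm29216 differs from mt-Co1 by A1066T, counted in the same way. The first bases of mt-Nd3 and Gm28438, and the stretch of mt-Co1 where the match to Gm29216 begins, are printed with the differing base in capitals. The first 9 bases of the annotated Gm29216 lie outside its match and are not shown.

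mt-Nd3: atTaacctgtacactgttatcttc

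Gm28438: atCaacctgtacactgttatcttc

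mt-Co1: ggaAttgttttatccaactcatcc

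Gm29216: ggaTttgttttatccaactcatcc

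The seventh copy of the row, Gm28439, is outside the naming rule because it had few counts and was added after its values were seen. It matches the first 876 bases of mt-Nd4 at 100% identity.

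A read counts toward these genes as a window of 100 bases, since the deposited effective length was the gene's length minus 99. Of the 684 windows of Gm28437, 684 are also windows of mitochondrial genes, and Gm28661, Gm10925, Gm10222 and Gm28439 likewise have no window of their own. Seen from the mitochondrial side, 99.9% of the windows of mt-Co3 occur unchanged in a nuclear transcript, 99.5% of those of mt-Co2 and of mt-Atp6, 98.5% of those of mt-Nd4l and 97.6% of those of mt-Nd3. The share was 60.8% in mt-Nd4, 30.8% in mt-Co1 and 3.19% in mt-Nd2. No window of the 5 other messenger RNA genes (mt-Nd1, mt-Atp8, mt-Nd5, mt-Nd6 and mt-Cytb) was found in a nuclear transcript.

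The libraries held 37128010 (replicate 1) and 38543623 (replicate 2) expected counts. Ensembl genes took 36048494 and 36774513 of them, and 1 read on a gene of 1 kb of effective length made 0.0406 and 0.0389 TPM. TPM, the relative number of transcripts, is a level per length. Spike-in RNAs took 6.42% and 10.1% of TPM. Markers of the labelled tissue were present, with 7 of 7 facial mesenchyme genes at 1 TPM or more. Markers of other cell types were present too: the summed level of 12 skeletal muscle genes was 4742 and 3531 TPM, of 10 erythroid genes 26939 and 20555 TPM, of 10 cartilage genes 597 and 939 TPM and of 7 epithelium genes 3087 and 2855 TPM. The 5 heart markers summed to 11.7 and 9.69 TPM and the 5 liver markers to 3.90 and 4.74 TPM. In such bulk samples, fewer cells of a type and less RNA per cell cannot be told apart.

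The 15 messenger and ribosomal RNA genes received 565713 counts in replicate 1 and 498456 in replicate 2. Messenger RNA made up 73.7% and 77.6% of these counts and ribosomal RNA 26.3% and 22.4%. Against all counts on Ensembl genes the 13 messenger RNA genes stood at 1.16% (95% exact Clopper-Pearson interval 1.15% to 1.16%) and 1.05% (1.05% to 1.05%), and the ribosomal RNAs at 0.413% and 0.304%. These intervals cover counting error only, and the gap between the pools was far wider. Among the counts on members, complex I genes took 22.2% ± 0.953 (SD, n = 2), complex III 13.2% ± 1.11, complex IV 21.6% ± 0.215 and ATP synthase 18.7% ± 0.459. These shares leave out the 222033 and 210513 counts assigned to nuclear copies, most of which lay on copies of complex IV genes.

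The ATP synthase genes stood highest. mt-Atp6, which encodes the subunit that forms the proton path, was at 6376 TPM in replicate 1 and 5537 TPM in replicate 2 (5957 ± 593), 5th of all Ensembl genes by mean TPM. mt-Atp8, a short accessory subunit of the same enzyme, was at 4733 and 4362 TPM (4547 ± 263), in 9th place. Both libraries put the deposited TPM of mt-Atp6 above that of mt-Atp8, with no overlap between the replicate values. Their deposited credibility bounds did overlap. In replicate 1 these were 4613 to 6792 TPM for mt-Atp6 and 4543 to 4706 for mt-Atp8. In replicate 2 they were 3739 to 6192 and 4188 to 4341 TPM. The genes share 43 bases, because the start of mt-Atp6 lies inside the end of mt-Atp8, as the following stretch shows with the shared bases in capitals, from 15 bases before to 15 bases after.

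mt-Atp8 and mt-Atp6: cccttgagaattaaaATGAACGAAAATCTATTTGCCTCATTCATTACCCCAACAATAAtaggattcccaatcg

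The stretch opens in capitals with the start codon of mt-Atp6 and closes with the stop codon of mt-Atp8, so the deposited split of reads between this pair rests on bases outside it. No annotated nuclear transcript matched mt-Atp8, although it lies between mt-Co2 and mt-Atp6, whose copies are neighbours in the chromosome 1 row. mt-Atp8 is 204 bases long (chrM:7766-7969), so its level rested on 12245 and 11769 counts, against 91436 and 82819 on mt-Atp6.

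mt-Cytb, the only mitochondrial subunit of complex III, followed at 2732 and 2599 TPM (2665 ± 93.8), and its counts of 70332 and 69794 were, as a ratio, the closest between the replicates of any messenger RNA gene. The complex IV genes encode the catalytic core of cytochrome c oxidase, and of these mt-Co1 came next after mt-Cytb. mt-Co1 was at 2415 and 2043 TPM (2229 ± 263). mt-Co2 was at 1051 and 1133 TPM (1092 ± 57.4). mt-Co3 was at 1197 and 882 TPM (1039 ± 223). mt-Co1 lay above the other two in both libraries, while mt-Co2 and mt-Co3 changed places between the libraries.

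The 7 complex I genes, whose products form the membrane arm of NADH dehydrogenase, spread the widest. mt-Nd1 led at 2224 and 2005 TPM (2114 ± 155), in the range of mt-Co1. mt-Nd4 was at 1119 and 1017 TPM (1068 ± 72.4), and mt-Nd2 at 703 and 606 TPM (654 ± 68.3). Below them mt-Nd6 stood at 475 and 421 TPM (448 ± 38.5), mt-Nd3 at 405 and 340.3 TPM (373 ± 45.7) and mt-Nd5 at 357 and 328 TPM (342 ± 20.0). mt-Nd4l was lowest of all messenger RNA genes at 104 and 65.9 TPM (84.9 ± 26.8), from 507 and 335 counts. In the order of the 13 genes, mt-Co1 and mt-Nd1 overlapped between replicates, as did mt-Co2, mt-Nd4 and mt-Co3, and mt-Nd3 and mt-Nd5. The 8 other neighbouring pairs did not overlap between replicates, credibility bounds aside. The ranks of the 13 genes in the libraries were alike (Spearman rho 0.978 across genes, which share libraries and are not independent replicates).

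**Figure D1:**
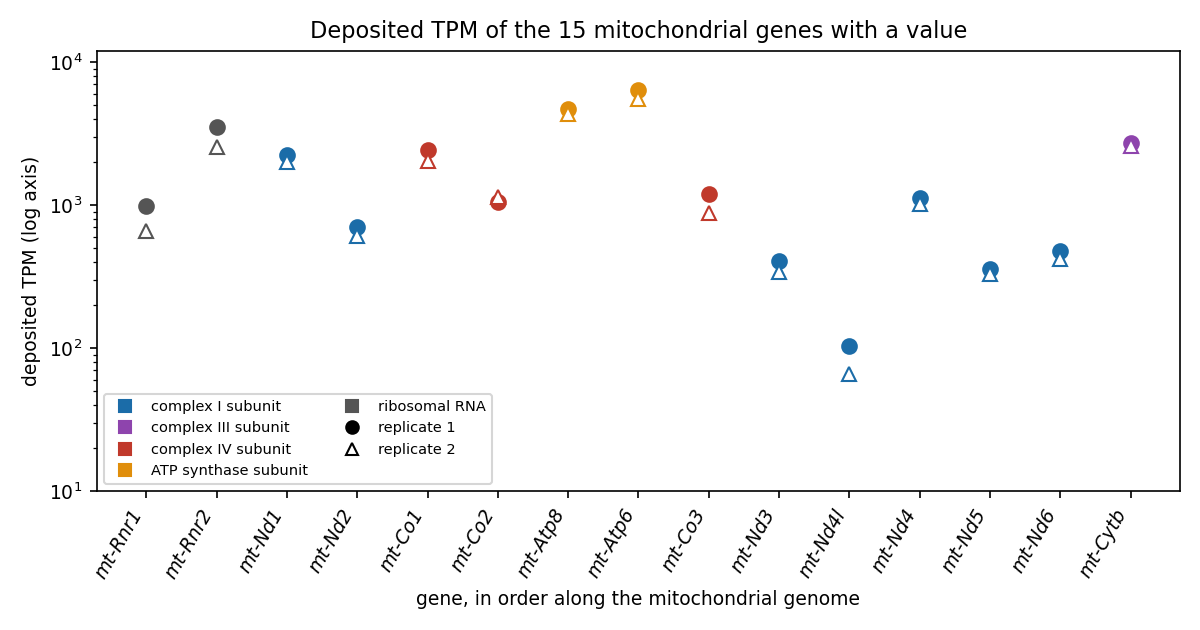
Deposited TPM (log axis) of the 13 messenger and 2 ribosomal RNA genes in their order along the mitochondrial genome, with replicate 1 as circles and replicate 2 as triangles. Levels did not fall steadily along the genome: mt-Atp8 and mt-Atp6 stood highest, mt-Nd4l lowest at 84.9 TPM on average, and in each gene but mt-Co2 the value of replicate 1 was the higher.

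The ribosomal RNAs of the mitochondrion lie at the head of the heavy-strand transcript, before the messenger RNAs. mt-Rnr2, the large ribosomal RNA (chrM:1094-2675), was at 3501 and 2552 TPM (3027 ± 671), and mt-Rnr1, the small one (chrM:70-1024), was at 986 and 658 TPM (822 ± 232). The molecules are partners in the same ribosome, yet mt-Rnr2 was 3.55 and 3.88 times the level of mt-Rnr1. Neither had a nuclear match by the rule used here. mt-Rnr2 lay below mt-Atp6 and mt-Atp8 in both libraries. How far the library preparation favoured polyadenylated RNA is not given in the sources used here. Any removal of ribosomal RNA during preparation would also bear on these levels and on their ratio, and was not tested. The levels of these ribosomal RNAs therefore say only how they were represented in these libraries.

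All 22 transfer RNA genes were listed at 0 in both libraries, which is no measurement of their level. They are 59 (mt-Ts2) to 75 bases (mt-Tl1) long, below the 100 bases that a sequence needed to have an effective length, and below the 200-nucleotide limit of the RNA that was used. The shortest and the longest are printed whole.

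mt-Ts2: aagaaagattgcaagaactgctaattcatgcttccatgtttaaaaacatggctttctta

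mt-Tl1: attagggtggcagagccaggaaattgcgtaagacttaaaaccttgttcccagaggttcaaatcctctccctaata

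mt-Tl1 is a leucine transfer RNA that stands between mt-Rnr2 and mt-Nd1, and mt-Ts2, a serine transfer RNA, stands between mt-Th and mt-Tl2. The 20 others are mt-Tf, mt-Tv, mt-Ti, mt-Tq, mt-Tm, mt-Tw, mt-Ta, mt-Tn, mt-Tc, mt-Ty, mt-Ts1, mt-Td, mt-Tk, mt-Tg, mt-Tr, mt-Th, mt-Tl2, mt-Te, mt-Tt and mt-Tp, each named for the amino acid it carries. They were among 2218 Ensembl genes too short to receive a count, and sequences of this length held 0 counts in the whole table. On the plus strand lie 14 of the transfer RNA genes and on the minus strand 8.

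By strand, 28 members lie on the plus strand and 9 on the minus strand. mt-Nd6, a complex I subunit, is the only messenger RNA gene on the minus strand. It took 4916 and 4540.0 counts, which was 0.869% and 0.911% of the counts on members, while the 12 plus-strand messenger RNA genes took 412082 and 382170 counts. Per length the gap was smaller: mt-Nd6 stood at 41.0% and 39.1% of the median TPM of the 12 others, above mt-Nd3, mt-Nd5 and mt-Nd4l. With the TPM of nuclear copies added to the members it stood at 18.7% of that median, and with the authors' posterior mean TPM at 23.1%. With the counts of copies added, mt-Nd6 at 448 TPM lay below mt-Nd3 at 1356 TPM and mt-Nd4l at 621 TPM, and above mt-Nd5. Its base composition stands apart as well, with 28.1% G and 5.97% C in its coding strand against 5.88% to 16.1% G and 22.1% to 30.0% C in the 12 others. The strand setting of the counting is not given in the sources used here, and without it reads of mt-Nd6 and reads antisense to it cannot be told apart.

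mt-Nd6 (chrM:13552-14070) and mt-Nd5 (chrM:11742-13565) run toward each other and overlap by 14 bases. The ends of both genes are printed, each 5′ to 3′ on its own strand, with the overlap in capitals.

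mt-Nd5 end: ttatcttatactcaaTTAATCTCGAGTAA

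mt-Nd6 end: ttattattatcgagaTTACTCGAGATTAA

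The capitals of one line are the reverse complement of those of the other, and each closes with a stop codon. In the same way mt-Nd4l and mt-Nd4 share 7 bases on 1 strand and mt-Atp6 and mt-Co3 share 1. Of the 13 reading frames, 10 end with a whole stop codon in the gene, and mt-Co3, mt-Nd4 and mt-Cytb end in a single T, as printed above for mt-Co3. Such stops are known to be completed by polyadenylation. The genes with a single T were at 1039, 1068 and 2665 deposited TPM, inside the range of the others. With the counts of copies added mt-Co3 was at 8427 TPM, the highest of the 13. Across the 13 genes, Spearman's rho of mean TPM with the position of the gene's start was -0.33, with its length 0.04 and with its GC content -0.02. With the counts of copies added the values were -0.40, -0.19 and 0.12. These are descriptions over genes of the same 2 libraries.

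**Figure D2:**
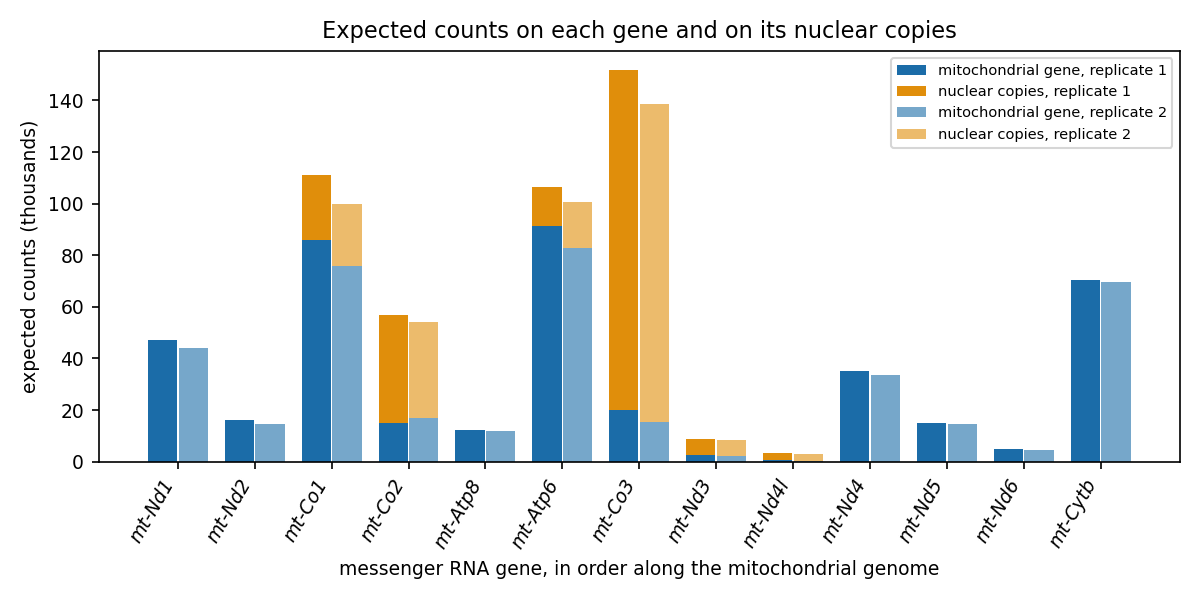
Expected counts, divided by 1000, on each of the 13 messenger RNA genes (blue) and, stacked on them, on its nuclear copies (orange), with replicate 1 in full and replicate 2 in lighter colour. mt-Co3 had the tallest columns, of which 86.7% and 88.8% lay on the copy, while the columns of mt-Nd1, mt-Atp8, mt-Nd5, mt-Nd6 and mt-Cytb held no copy counts.

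The deposited counts were split with the nuclear copies in unequal ways. Of the counts on mt-Co3 and Gm28437 together, 86.7% in replicate 1 and 88.8% in replicate 2 were assigned to Gm28437, which thereby stood at 7802 and 6995 TPM (7398 ± 570.3). The copy took 84.9% and 88.2% of the counts of the mt-Nd4l pair, 73.3% and 68.6% for mt-Co2 and 71.6% and 73.6% for mt-Nd3. It took 22.6% and 23.8% for mt-Co1 and 14.0% and 17.9% for mt-Atp6. For mt-Nd4 it took 0.0178% and 0.00945%, although Gm28439 is identical to mt-Nd4 over all of its 876 bases. Copies with the same identity to their members thus received shares from 0.00945% to 88.8% of the counts. The pairs were unlike in how much of the member is shared. Of the windows of mt-Nd4 60.8% occur in a nuclear transcript, and of those of mt-Co3 99.9%.

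Outside the chromosome 1 row, 8 nuclear genes matched at 90% identity or more over at least 100 bases, and they held few counts. Gm13339, Gm13340 and Gm13341 on chromosome 2 had between 0 and 30.7 counts, Gm11512 on chromosome 11 had 1 and 0, and Gm11407, Gm11408 and Gm11410 on chromosome 4 and Gm4076 on chromosome 13 had 0 in both libraries. They were named after their values were seen. These copies differ from the mitochondrial sequence at many bases, so 100-base windows shared with a member made up at most 15.4% of any of them. In all, 15 nuclear copies took 222033 and 210513 counts and 1.59% and 1.45% of all TPM, which was 36.0% and 37.1% (36.6% ± 0.817) of the TPM on members and copies together.

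Adding the counts of the copies back to the members changed the order of levels. This sum was chosen after seeing the data, and which genome the shared reads came from cannot be told apart from these files. On this scale mt-Co3 went from 1039 ± 223 to 8427 ± 792 TPM, 8.11-fold, and stood first in both libraries at 8987 and 7867 TPM. mt-Atp6 was next at 7076 ± 474 TPM, 1.19-fold above its deposited level. mt-Co2 moved 3.45-fold to 3770 ± 229 TPM, and mt-Co1 moved 1.30-fold to 2900 ± 308 TPM, so the complex IV genes ranked in the order mt-Co3, mt-Co2, mt-Co1. mt-Nd3 moved 3.64-fold to 1356 ± 95.7 TPM and mt-Nd4l 7.32-fold to 621 ± 91.7 TPM, which left mt-Nd5 lowest at 342 TPM. With the copies added, only mt-Co1 and mt-Cytb, and mt-Nd2 and mt-Nd4l, overlapped between replicates, and the ranks of the 13 genes were the same in both libraries (Spearman rho 1).

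The credibility bounds deposited with each level were wide for 5 genes. For 8 of the 13 messenger RNA genes the upper bound was 1.01 to 1.06 times the lower bound in both libraries. For mt-Co3 the bounds ran from 949 to 6563 TPM in replicate 1 and from 606 to 5901 TPM in replicate 2, so the upper was 6.91 and 9.74 times the lower. mt-Nd4l had bounds of 36.8 to 206 and 15.3 to 142 TPM. mt-Co2 had bounds of 859 to 3289 and 921 to 2719 TPM. mt-Atp6 had bounds of 4613 to 6792 and 3739 to 6192 TPM, a ratio of 1.47 and 1.66, and mt-Nd3 of 293 to 508 and 251 to 396 TPM. These 5 genes are those with over 97% of windows in a nuclear transcript. mt-Co1, which moved 1.30-fold with the copies added, was among the 8 genes with narrow bounds.

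The authors' posterior mean TPM was another estimate of the same levels, and it differed from the deposited TPM in some of these genes. For mt-Co3 it was 3133 and 2752 TPM, 2.62 and 3.12 times the deposited TPM, and for mt-Co2 it was 1792 and 1641 TPM, 1.70 and 1.45 times. For mt-Atp6 it was 0.889 times the deposited TPM in both, and for mt-Nd4l 1.14 and 1.22 times. For mt-Nd3 it was 1.00 and 0.966 times, close to the median ratio over rows with a high TPM. The posterior SD of the count was 0 in both libraries for mt-Nd1, mt-Atp8, mt-Nd5, mt-Nd6, mt-Cytb and both ribosomal RNAs. It was 36563 and 35338 reads for mt-Co3, more than its deposited 20198 and 15518 counts. Each chromosome 1 copy had the same posterior SD as its member within 0.05 reads. Over rows with a high TPM, spike-ins included, the posterior mean was 0.978 and 0.979 times the TPM at the median. Rows with a low TPM were left out of this median. With ratios of this size, the deposited TPM lay slightly above the upper bound in 9 of the 10 members with narrow bounds, all but mt-Nd6.

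**Figure D3:**
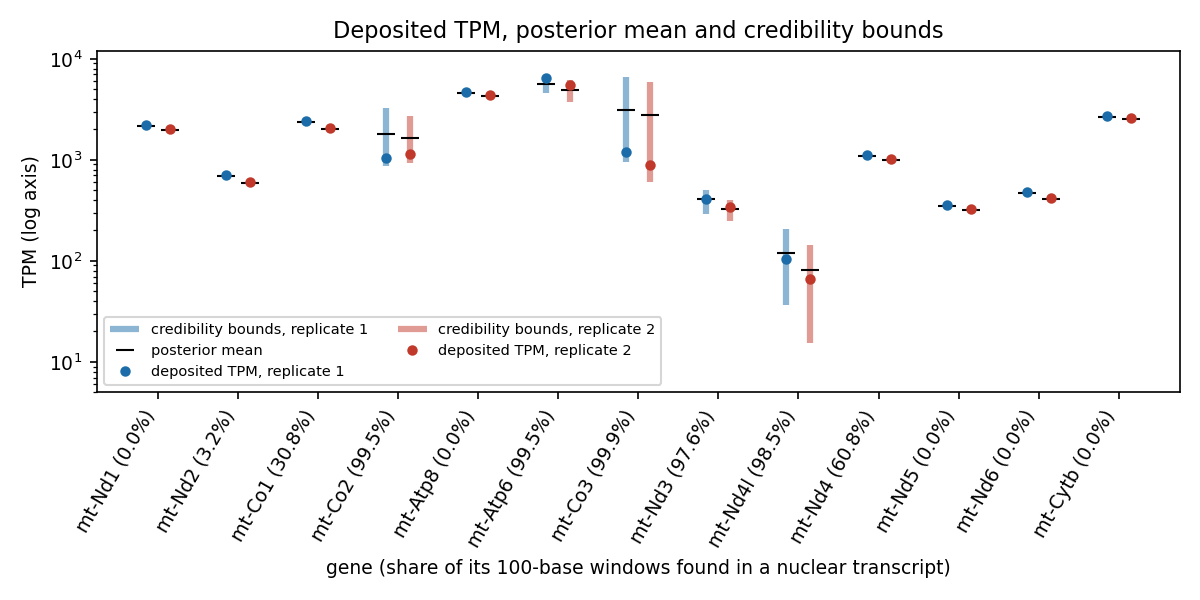
Deposited TPM (points), posterior mean TPM (black dashes) and deposited credibility bounds (bars) of the 13 messenger RNA genes in replicate 1 (blue) and replicate 2 (red) on a log axis, with the percent of each gene's 100-base windows that occur in a nuclear transcript in brackets. The bars are wide only for mt-Co2, mt-Atp6, mt-Co3, mt-Nd3 and mt-Nd4l, and the deposited TPM of mt-Co3 lies near the lower end of its bar.

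Set beside the nuclear subunits of the same complexes, the mitochondrial genes had the higher median TPM in each complex that has both. Complex I had a median of 448 ± 38.5 TPM over its 7 mitochondrial genes and 223 ± 1.45 TPM over 36 nuclear ones, a ratio of 2.01 ± 0.159 (SD, n = 2), or 2.93 ± 0.287 with the copies added. The nuclear genes ran from Ndufb4 at 39.0 TPM to Ndufab1 at 446 TPM and Ndufc1 at 496 TPM, and 1 of the 36, Ndufc1, exceeded the mitochondrial median. mt-Nd4l at 84.9 TPM lay below the nuclear median. With the copies added mt-Nd4l was at 621 TPM, above all 36 nuclear genes, and 0 of the 36 exceeded the mitochondrial median. Copies of the nuclear subunit genes were not searched for, so in every complex only the mitochondrial side changes on this scale. Complex II, which has no mitochondrial subunit, ranged from Sdha at 178 TPM to Sdhb at 285 TPM.

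mt-Cytb of complex III was 6.87 ± 0.157 times the median of 9 nuclear subunits, 388 TPM, led by Uqcr10 at 584 TPM. The 3 complex IV genes had a median of 1165 ± 45.3 TPM, 2.99 ± 0.120 times that of 16 nuclear subunits at 390 TPM, and 9.68 ± 0.601 times with the copies added. Of the nuclear subunits Cox4i1 at 815 TPM, Cox6b1 at 812 TPM and Cox6a1 at 693 TPM were the highest and Cox7a1 at 5.33 TPM the lowest. The list also holds Cox4i2, Cox6a2, Cox6b2 and Cox8b at 23.1 to 49.3 TPM, named after their values were seen. These low genes and Cox7a1 lower the nuclear median and so raise both ratios, and ratios without them were not computed. ATP synthase showed the largest ratio of the 4 complexes on the deposited scale, 11.2 ± 1.26, with a median of 5252 ± 428 TPM over mt-Atp6 and mt-Atp8 and 468 ± 14.2 TPM over 17 nuclear subunits, led by Atp5b at 1575 TPM. In complexes III, IV and V no nuclear subunit exceeded the mitochondrial median.

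**Figure D4:**
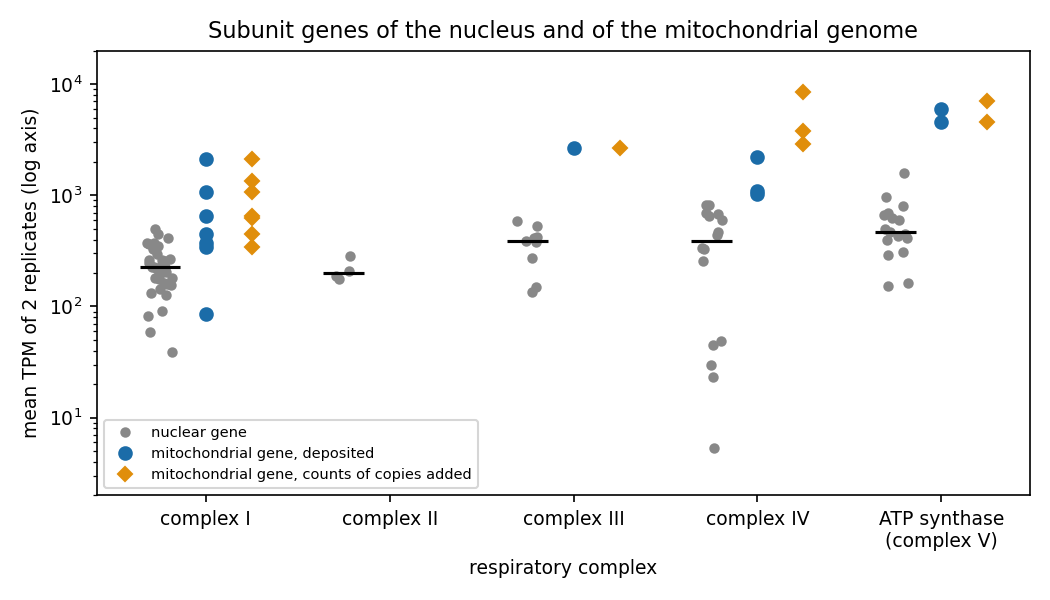
Mean TPM of 2 replicates (log axis) for subunits of each respiratory complex: nuclear genes in grey with their median as a line, mitochondrial genes as deposited in blue and with the counts of nuclear copies added in orange. The mitochondrial genes of complexes III, IV and V lie above all nuclear ones of the same complex, and those of complex I overlap them.

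The nuclear genes that act on this genome were all measured at low to moderate levels. Of 9 transcription genes 9 were at 1 TPM or more, with a median of 22.8 ± 3.13 TPM: the mitochondrial RNA polymerase Polrmt was at 35.8 TPM, Tfam, which packages mitochondrial DNA and starts transcription, at 46.5 TPM, its partner Tfb2m at 22.7 TPM and the elongation factor Tefm at 20.1 TPM. All 14 processing genes passed the same level, and their median was 18.7 ± 0.813 TPM. Hsd17b10 at 145 TPM, Trmt10c at 17.9 TPM and 1110008L16Rik (Prorp) at 12.7 TPM encode the enzyme that cuts the 5′ ends of transfer RNAs, Elac2 at 19.4 TPM cuts their 3′ ends, and Mtpap at 21.3 TPM adds poly(A) tails.

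Among 7 stability and decay genes Slirp was at 221 TPM and its partner Lrpprc at 27.0 TPM. These proteins bind mitochondrial messenger RNA together. Rexo2, which degrades short RNA, was at 100.3 TPM, Grsf1, of the mitochondrial RNA granules, at 46.4 TPM, and Pnpt1 and Supv3l1, which form the main RNA-degrading complex, at 24.8 and 18.6 TPM. The 77 mitoribosome genes had a median of 73.5 ± 2.31 TPM, from Mrpl1 at 13.9 TPM to Mrpl17 at 274 TPM. Of 10 translation genes Tufm, the elongation factor, was highest at 96.7 TPM, and of 6 maintenance genes Ssbp1, the single-stranded DNA binding protein, at 110.04 TPM, with the DNA polymerase Polg at 25.2 TPM and the helicase Twnk at 15.7 TPM.

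Between the replicates, mitochondrial transcripts were lower in replicate 2. Log2 ratios of replicate 2 over replicate 1 were taken after TMM scaling. Their median was -0.17 over the 13 messenger RNA genes and 0.0007 over 18318 genes. Below 0 were 12 of the 13, beside 9118 of the 18318. The 13 genes share libraries and are not independent replicates. Past 1.2-fold lower were 2 of 13, mt-Co3 at -0.44 and mt-Nd4l at -0.65, and none was past 1.2-fold higher. Of all 18318 genes with at least 10 counts in each library, 11.9% were past 1.2-fold lower and 13.6% higher. Of the 11499 genes with at least 300 counts in each, a limit chosen after seeing the data that all 15 members passed, 4.40% were lower and 4.36% higher. Both ribosomal RNAs were past 1.2-fold lower, mt-Rnr1 at -0.58 and mt-Rnr2 at -0.45. Whether ribosomal RNA was removed unequally from the libraries was not tested. With 1 library on each side these ratios compare pools and carry no p-value.

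The genes without shared windows lay close together, from mt-Nd6 at -0.17 and mt-Nd1 at -0.15 to mt-Nd5 and mt-Atp8 at -0.12 and mt-Cytb at -0.07. mt-Co2 was the exception among the messenger RNAs at 0.11: its counts went from 15156 to 17028 while those of its copy Gm28661 went from 41512 to 37197. With the counts of the copies added, mt-Co2 was at -0.12, mt-Co3 at -0.19 and mt-Nd4l at -0.30. On that scale 13 of 13 were below 0, beside 9118 of 18318 genes without copies added. Their median was -0.14, and 1 of 13, mt-Nd4l, was past 1.2-fold. The ribosomal RNAs, which no annotated nuclear transcript matched by the rule used here, stayed at -0.58 and -0.45.

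Other lists moved between the same pools. The 12 skeletal muscle markers were lower in replicate 2 in 12 of 12, with a median log2 ratio of -0.41, and of 9 erythroid markers with a ratio 6 were past 1.2-fold lower and 2 higher. Of 10 cartilage markers 9 were past 1.2-fold higher, with a median of 0.62. Among the nuclear subunits none of complexes I, II, III or V passed 1.2-fold, and medians ran from -0.05 to -0.02. In complex IV, 3 of 16 passed, named after their values were seen: Cox6a2 at -0.42, Cox8b at -0.62 and Cox6b2 at 0.34. Of the 77 mitoribosome genes 1 passed, Mrpl23 at 0.41, also named afterwards. The part of these differences in the ratio of the mitochondrial genes was not tested.

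**Figure D5:**
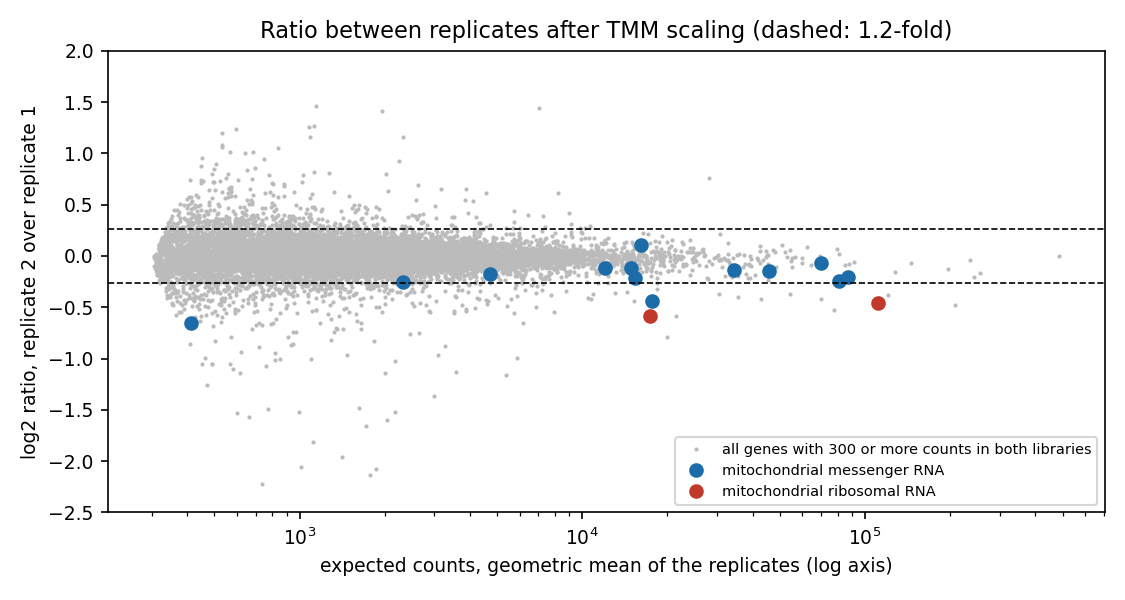
Log2 ratio of replicate 2 over replicate 1 after TMM scaling against the geometric mean of the expected counts (log axis) for the 11499 genes with at least 300 counts in each library (grey), with mitochondrial messenger RNA genes in blue and ribosomal RNA genes in red. Of the mitochondrial genes only mt-Co2 lies above 0, and mt-Rnr1, mt-Rnr2, mt-Co3 and mt-Nd4l lie below the lower dashed line of 1.2-fold.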

How the data were processed

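Total RNA of 2 pools was measured. The authors quantified the libraries one by one on mm10 with annotation M4, as a text deposited beside the tables states. Neither that text nor the labels name the aligner, the program that assigned reads, a version or the strandedness. Per the file headers, the authors deposited expected counts, TPM, FPKM, the percent of each gene taken by a transcript, a posterior mean count and its SD, and credibility bounds of TPM. The deposited bounds and the posterior SD were recorded as a score, and the level of the bounds is not printed in the tables. Gene and transcript TPM were equal within 0.005 for all 37 members.

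Names, coordinates and sequences came from GENCODE M21 (GRCm38), whose lengths equalled the deposited ones for all 37 members. Nuclear transcripts were matched to members with blastn 2.17.0, and 2 further matched genes were not in the tables used here. Windows of 100 bases were compared on both strands without mismatch. Levels combined with copies divide the summed expected counts by the member's effective length. For replicate ratios, expected counts were rounded and scaled with edgeR 4.0.16 (TMM, factors 0.989 and 1.01) under R 4.3.3, with a prior count of 2 and at least 10 counts in each library. The script was tested on simulated counts. DESeq2 1.42.0 gave size factors as an alternative scaling. Under it the median log2 ratio of the messenger RNA genes was -0.17 and the mean of the ribosomal RNAs -0.52, the same as under TMM at this rounding. Python 3.11.15, pandas 2.3.3, numpy 2.4.6, scipy 1.17.1 and matplotlib 3.10.9 did the rest.

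The members, lists, markers and alternatives were chosen with earlier results of these data known. The naming rule took all members, copies with 100 or more counts at 95% identity or more, the 3 highest and the lowest gene of each nuclear list, and any gene of the transcription, processing, stability and maintenance lists. Ndufb1 and Ahsp were not found in the tables.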

Additional observations from a re-analysis of the deposited data

How the results depend on the processing

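No paired analysis was possible because there was only 1 group. Leaving out each replicate in turn gave 2.13% to 2.39% for the messenger RNA share of TPM, 0.321% to 0.449% for the ribosomal RNA share, 1017 to 1119 TPM for the messenger RNA median, 39.1% to 41.0% for mt-Nd6 as a percent of the median of the others, 36.0% to 37.1% for the TPM on nuclear copies and 3.55 to 3.88 for mt-Rnr2 over mt-Rnr1. It cannot be applied to the ratio between replicates.

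The authors' posterior mean TPM moved the messenger RNA median to 1717 TPM, mt-Nd6 to 23.1% and the share on copies to 31.5%. Adding the TPM of copies to the members gave a messenger RNA share of 3.78%, a median of 2114 TPM and mt-Nd6 at 18.7%, and leaves no share on copies to give. Expected counts, which are not per length, gave a messenger RNA share of 1.06%, a median of 15887 counts, mt-Nd6 at 27.4%, 28.9% on copies and 6.44 for mt-Rnr2 over mt-Rnr1. Rescaling to Ensembl genes gave 2.46% and 1164 TPM, and the FPKM median was 711. The median log2 ratio of the messenger RNA genes was -0.83 under scaling by spike-ins, which moved the median of all genes to -0.65, so relative to all genes it was -0.18. The mean for the ribosomal RNAs, an alternative added after seeing the data, was -0.52 under TMM and -1.17 under spike-ins, or -0.52 relative to all genes. The number of nuclear copies was 15, with 11 at 95% identity and 15 with matches of 200 bases.

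Every level here is limited by 2 pools of 1 group. mt-Nd4l had the fewest counts of the messenger RNA genes, 335 in replicate 2, and transfer RNAs had no value. The levels of mt-Co2, mt-Co3, mt-Nd3 and mt-Nd4l depend on how reads were split with the nuclear copies by more than 3-fold.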
